A study of Homo sapiens with 32 samples.

Results

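DNA polymerases and the proteins that work with them at the replication fork were followed here as a group of 41 listed genes. They were chosen by the function of their products, with earlier results of these data known. Members were the genes of the deposited count table whose Ensembl identifier maps to a listed symbol, which held for 40 of the 41 among 19023 genes. GINS3 was not analysed here. The cells were RPE-1, an immortalised human line of retinal pigment epithelial origin, labelled as wild type. All groups had been kept without serum for 18 h and were then collected at 0 h, 5 h, 10 h or 15 h after serum was given back. At each time 4 biological replicates were measured by RNA-seq of total RNA depleted of ribosomal RNA, and 4 by Ribo-seq, which sequences the mRNA fragments that ribosomes protect (footprints), for 32 libraries in all. Every group is the same line, and no library came from cells held without serum until 5 h, 10 h or 15 h, so serum and time since 0 h cannot be told apart. The 16 RNA libraries held 595851 to 1107470 counts and the 16 footprint libraries 2851423 to 9901322.

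At a replication fork the CDC45, MCM and GINS proteins form the helicase that opens the duplex, after the kinase CDC7 with its activator DBF4, and MCM10, have switched it on. Polymerase alpha with its primase lays down primers, RFC loads the ring-shaped clamp PCNA, and the clamp holds polymerase epsilon on the leading strand and polymerase delta on the lagging strand, while RPA coats single-stranded DNA. FEN1, DNA2, RNASEH2A and LIG1 remove primers and seal the lagging-strand fragments, TIMELESS, TIPIN, CLSPN and WDHD1 (AND-1) couple and protect the fork, and CAF-1 (CHAF1A and CHAF1B) puts histones back on the new DNA. In cultured cells many of these genes are known targets of the E2F transcription factors, which are held back in cells without growth factors and released late in G1.

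The summed level of the fork genes was lowest at 5 h and rose between 5 h and 10 h in both assays. Of the single members, 29 of 40 in RNA and 19 of 40 in footprints had their lowest mean at 5 h. In footprints more members, 21 of 40 with PCNA among them, had it at 0 h, beside 10 of 40 in RNA. Such counts were not made over all genes. Levels are given as CPM, counts scaled to a library total of 1000000 after adjustment by TMM factors. The CPM of the 40 members summed to 1746 ± 57.9 (SD, n = 4) at 0 h, 1279 ± 84.3 after 5 h, 5711 ± 428 after 10 h and 6695 ± 288 after 15 h in RNA. In footprints the sums were 989 ± 58.9, 814 ± 56.8, 5189.8 ± 190.2 and 6003 ± 138. The groups of 4 sums did not overlap between 5 h and 10 h in either assay. These are shares of each library, and in bulk samples fewer cells expressing a gene and less RNA per cell cannot be told apart.

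Changes are log2 ratios with standard errors (SE) from edgeR quasi-likelihood fits over all genes of an assay, and a gene was called at a Benjamini-Hochberg adjusted p under 0.05. In footprints at 10 h against 0 h, 39 of 40 members were called higher and 0 lower (0 lower at an unadjusted p under 0.05, and 0 lower by DESeq2), with a median change of 2.85. Over all genes, 39.4% were called higher and 39% lower. The count at 15 h against 0 h was again 39 higher, with a median of 2.89 (40.1% of all genes higher, 39.6% lower). Between 5 h and 10 h 39 members were called higher, with a median of 2.99, against 31% of all genes higher and 30.7% lower. POLE4 was the member not called in each of these comparisons.

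RNA gave a like count with smaller changes. At 10 h against 0 h 35 members were called higher and 0 lower (1 lower at an unadjusted p under 0.05, and 0 by DESeq2), with a median of 2.16, where 23.3% of all genes were higher and 21.5% lower. The 5 members not called were POLE4, LIG1, RPA1, RFC1 and RPA3. At 15 h against 0 h 37 were called higher, with a median of 2.35 (25.4% of all genes higher, 25.4% lower), and POLE4, RPA1 and RPA3 were not called. Between 5 h and 10 h 38 were called higher, with a median of 2.58, against 10.1% higher and 9.56% lower over all genes. From 10 h to 15 h 5 members were called higher in RNA (POLA1, CDC45, GINS4, LIG1 and RNASEH2A) and 0 lower, with 3 lower at an unadjusted p under 0.05 and 0 by DESeq2, where 3.81% of all genes were higher and 2.11% lower. The call of LIG1 was lost in 5 of 14 settings, with an adjusted p of up to 0.106 without RNA 10 h replicate 4.

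The 4 RNA libraries numbered 2 and RNA 0 h replicate 3 stood apart from the other RNA libraries along the leading axis of within-group spread, which held 36.2% of that spread. TIMELESS, RPA1 and POLE were among the members whose RNA ran high in libraries numbered 2. Without these 5 libraries, an alternative chosen after seeing the data, 35 members were called higher and 1 (RPA3) lower in RNA at 10 h against 0 h, 37 higher at 15 h against 0 h, and 8 higher and 1 lower at 15 h against 10 h. The members differed behind the like counts: at 10 h CHTF18 and GINS4 lost their calls and LIG1 and RPA1 were called higher, and at 15 h RFC1 lost its call and RPA1 was called higher. The labels name no batch. Of the cell type markers, KRT8, KRT18, VIM and CDH2 summed to 6009 to 9503 CPM of RNA over the 16 libraries. Their footprints summed to 3764 to 4246 CPM at 0 h, 12718 to 13944 at 5 h and 11576 to 12437 at 15 h. In RNA 9 genes of differentiated pigment epithelium summed to 23.8 to 85.8. RPE65 had no RNA count at 0 h, 5 h or 10 h, and TYR and PMEL had none at 10 h or 15 h. Footprints of these 9 genes summed to 103.5 to 122.5 CPM at 0 h and 59.1 to 65.1 at 15 h. Only TYR was without footprints, at 10 h and 15 h. Markers of blood, endothelial and stromal cells summed to 132 to 234 CPM of RNA at 0 h and to 22.1 to 33.6 at 15 h. In footprints the same 7 genes summed to 632 to 734 CPM at 0 h and 124.8 to 132 at 15 h. PTPRC, CD14, PECAM1 and CDH5 had no RNA count at 15 h, whereas in footprints only CD14 had none then. At 0 h each of the 7 had counts in both assays, and their part in any result was not tested.

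**Figure D1:**
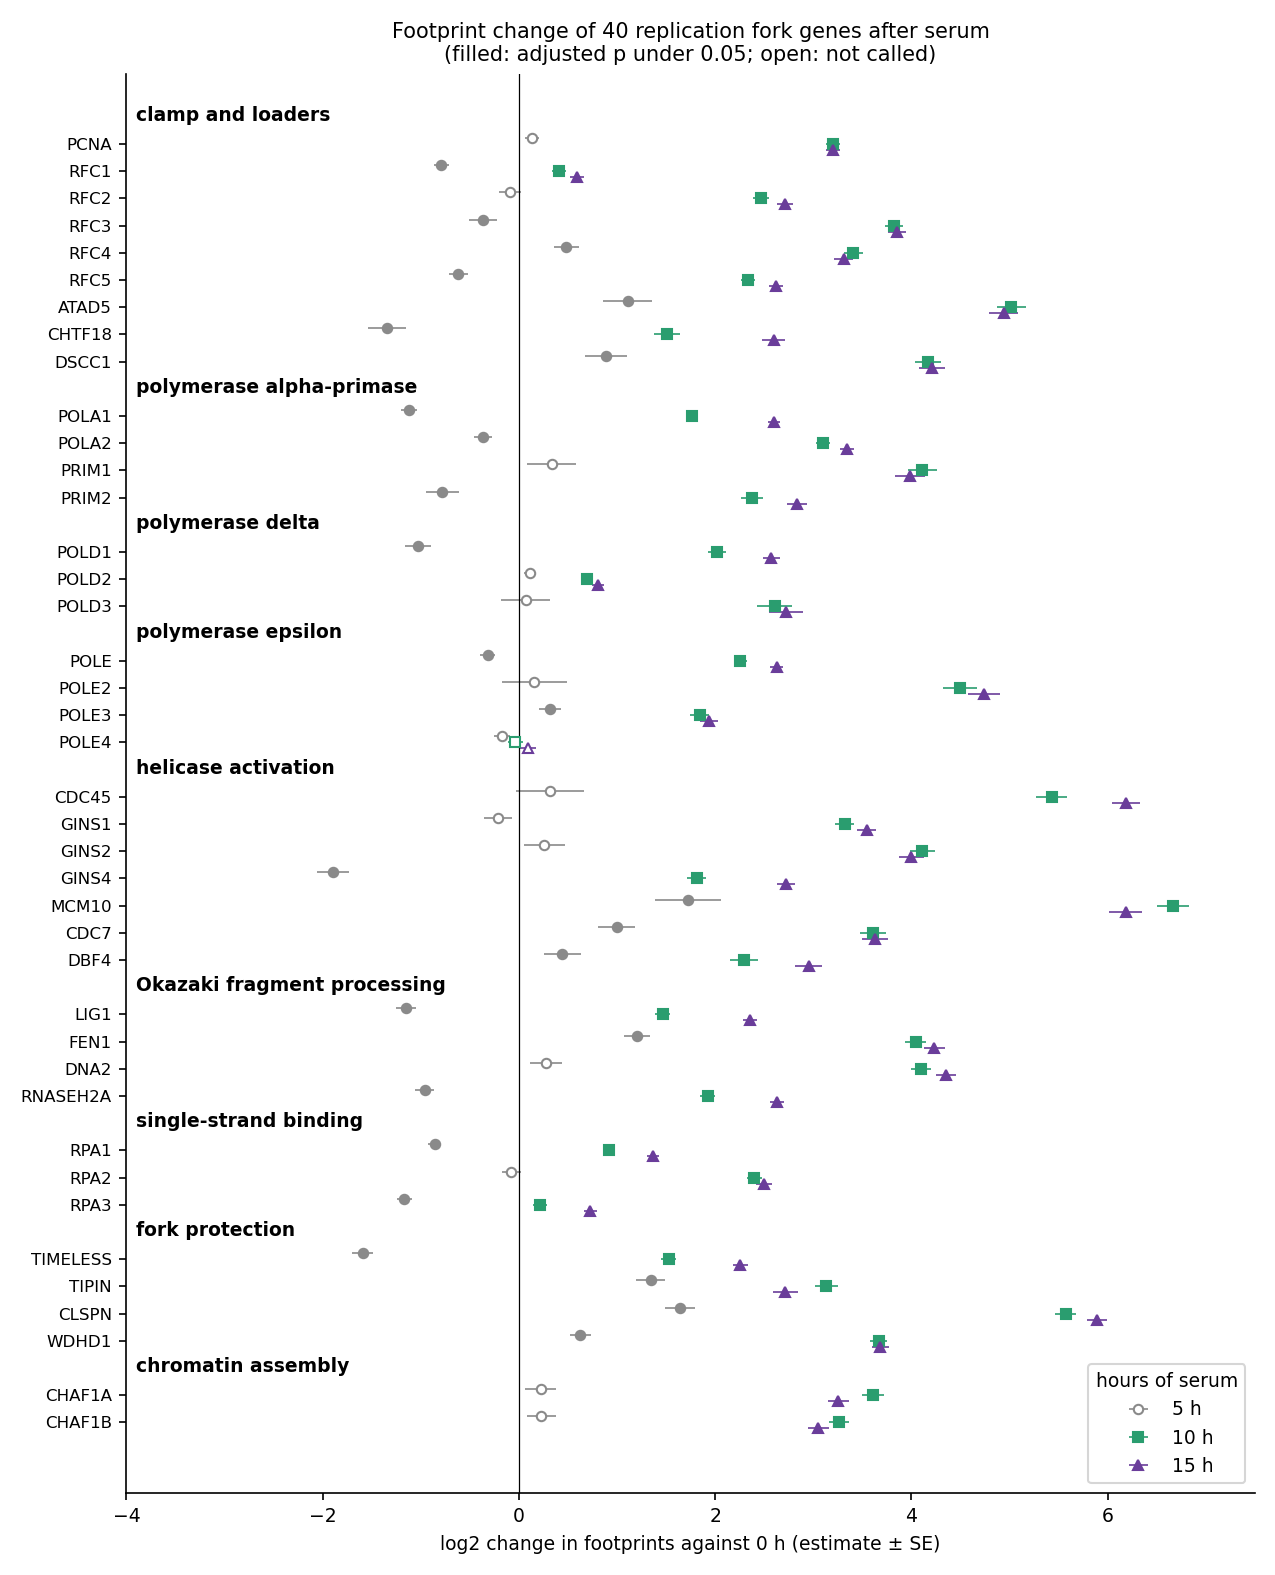
Change in footprints of the 40 members at 5 h (circles), 10 h (squares) and 15 h (triangles) of serum against 0 h, on a log2 scale with SE bars, ordered by role (n = 4 libraries per time). Filled symbols passed an adjusted p under 0.05; at 10 h all members but POLE4 lie right of 0, from RPA3 at 0.22 to MCM10 at 6.67, while at 5 h members lie on both sides.

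The promoters of the members were read for short motifs, as a description of sequence. RefSeq windows of 250 bases before to 50 bases after the gene start on GRCh38.p14 were at hand for 33 of the 40 members, in 42 windows. ATAD5, DSCC1, POLD3, GINS4, DNA2, RPA2 and RPA3 had none. An E2F-type motif (TTTCCCGC, TTTCGCGC, TTTGGCGC or TTTGCCGC on either strand) was in 13 of the 42 windows (30.95%), against 3.31% of the 35116 windows in the table. The 13 genes were PCNA, RFC3, POLA1, POLA2, POLE, POLE2, POLE4, GINS1, GINS2, CDC7, LIG1, TIPIN and CLSPN. The CCAAT box was in 21 of 42 windows (50%, against 34.6% of all), and the element TTTGAA, found at many genes of mitosis, in 2 of 42 (4.76%, against 15.2%). All were searched on both strands, no searched motif contains another, and a match describes the letters only. The 35116 windows cover 27305 genes and were not matched to the members in expression or base content. Whether the shares are particular to fork genes was therefore not tested.

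Of these promoters, 6 are printed to show the motif beside a range of responses, in 60 bases ending at or before the RefSeq gene start, 5′ to 3′ on the gene's strand, with the motif in capitals.
PCNA, chr20:5126648-5126707, minus strand, motif 59 bases before the start: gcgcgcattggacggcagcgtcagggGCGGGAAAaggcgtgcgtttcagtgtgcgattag
RFC3, chr13:33818068-33818127, plus strand, motif 55 bases before the start: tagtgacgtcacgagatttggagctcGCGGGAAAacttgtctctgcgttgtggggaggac
POLA2, chr11:65261883-65261942, plus strand, motif 53 bases before the start: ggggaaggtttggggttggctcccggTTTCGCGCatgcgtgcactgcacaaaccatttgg
GINS2, chr16:85688955-85689014, minus strand, motif 31 bases before the start: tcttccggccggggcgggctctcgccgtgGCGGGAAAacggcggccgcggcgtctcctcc
LIG1, chr19:48170425-48170484, minus strand, motif 114 bases before the start: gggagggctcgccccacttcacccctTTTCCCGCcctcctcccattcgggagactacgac
POLE4, chr2:74958583-74958642, plus strand, motif 31 bases before the start: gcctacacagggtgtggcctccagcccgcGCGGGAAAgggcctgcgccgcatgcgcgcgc
GCGGGAAA is TTTCCCGC read on the other strand. PCNA, RFC3, POLA2 and GINS2 rose by 3.10 to 4.11 in footprints at 10 h against 0 h and LIG1 by 1.47, whereas POLE4, with the same letters, was not called.

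Among the clamp and its loaders, 8 of 9 members were called higher in RNA and 9 of 9 in footprints at 10 h against 0 h. Over all genes, the shares called higher were 23.3% in RNA and 39.4% in footprints then, and 25.4% and 40.1% at 15 h. The same shares stand beside the counts of each role below. PCNA (chr20:5114953-5126622 on GRCh38.p14), the clamp itself, had 151, 129.8, 156 and 138 CPM of footprints in replicates 1 to 4 at 0 h and 154, 187, 141 and 152 after 5 h. At 10 h it had 1296, 1443, 1305 and 1239.6, and at 15 h 1242, 1309, 1339.9 and 1399. The 10 h and 15 h libraries lay far above all 0 h and 5 h libraries, and the 0 h and 5 h libraries overlapped. Its footprint change was 3.20 ± 0.07 (adjusted p = 1.27e-29), and its RNA change 3.05 ± 0.20. In RNA its CPM was 164, 125, 124 and 161 at 0 h and 1535, 967, 1200.4 and 1039 after 10 h, again without overlap. PCNA made up 14.5% ± 0.51 of all member footprints at 0 h and 25.4% ± 0.86 at 10 h (SD, n = 4).

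ATAD5, which takes the clamp off DNA, had the largest footprint change of the loaders. Its footprints were 2.96, 1.49, 1.35 and 2.60 CPM at 0 h, 4.62, 5.80, 4.51 and 3.04 after 5 h, 67.1, 68.1, 71.1 and 59.0 after 10 h and 60.5, 67.4, 60.3 and 63.6 after 15 h. All 5 h libraries lay above all 0 h libraries, and the later groups far above both. The change at 10 h was 5.02 ± 0.14 on a base of 41 footprint counts over the 4 libraries at 0 h. RNA of ATAD5 changed by 2.501 ± 0.32, from 10.9, 4.24, 2.89 and 10.46 CPM at 0 h to 46.1, 32.7, 31.2 and 50.4 after 10 h.

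RFC1, the large subunit of the canonical clamp loader, changed least in the group. Footprints were 97.6, 83.3, 82.8 and 74.1 CPM at 0 h, 55.0, 45.9, 51.8 and 40.8 after 5 h, 112, 109, 115 and 107 after 10 h and 119, 127, 126 and 130.0 after 15 h. The 5 h libraries lay below and the 10 h libraries above all 0 h libraries, with changes of -0.79 ± 0.08 and 0.41 ± 0.07. In RNA RFC1 ran 108, 97.4, 50.5 and 115 CPM at 0 h and 134, 90.3, 103 and 101 after 10 h, overlapping groups with a change of 0.20 ± 0.21 that was not called (adjusted p = 0.452). The small subunits RFC2, RFC3, RFC4 and RFC5, shared by all loader complexes, rose by 2.47 ± 0.08, 3.82 ± 0.09, 3.41 ± 0.10 and 2.33 ± 0.07 in footprints. CHTF18 and DSCC1 belong to the same alternative loader, and their footprints parted at 5 h: CHTF18 changed by -1.34 ± 0.19 and DSCC1 by 0.89 ± 0.21. At 10 h they stood at 1.51 ± 0.13 and 4.17 ± 0.14 against 0 h. CHTF18 RNA changed by 0.76 ± 0.29 at 10 h (adjusted p = 0.0350), a call lost in 5 of 14 settings, with an adjusted p of up to 0.0993 without the 5 RNA libraries that stood apart. The RNA call of RFC1 at 15 h (0.52 ± 0.21) was lost in 4 of 14 settings, with up to 0.171 without the same 5 libraries.

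**Figure D2:**
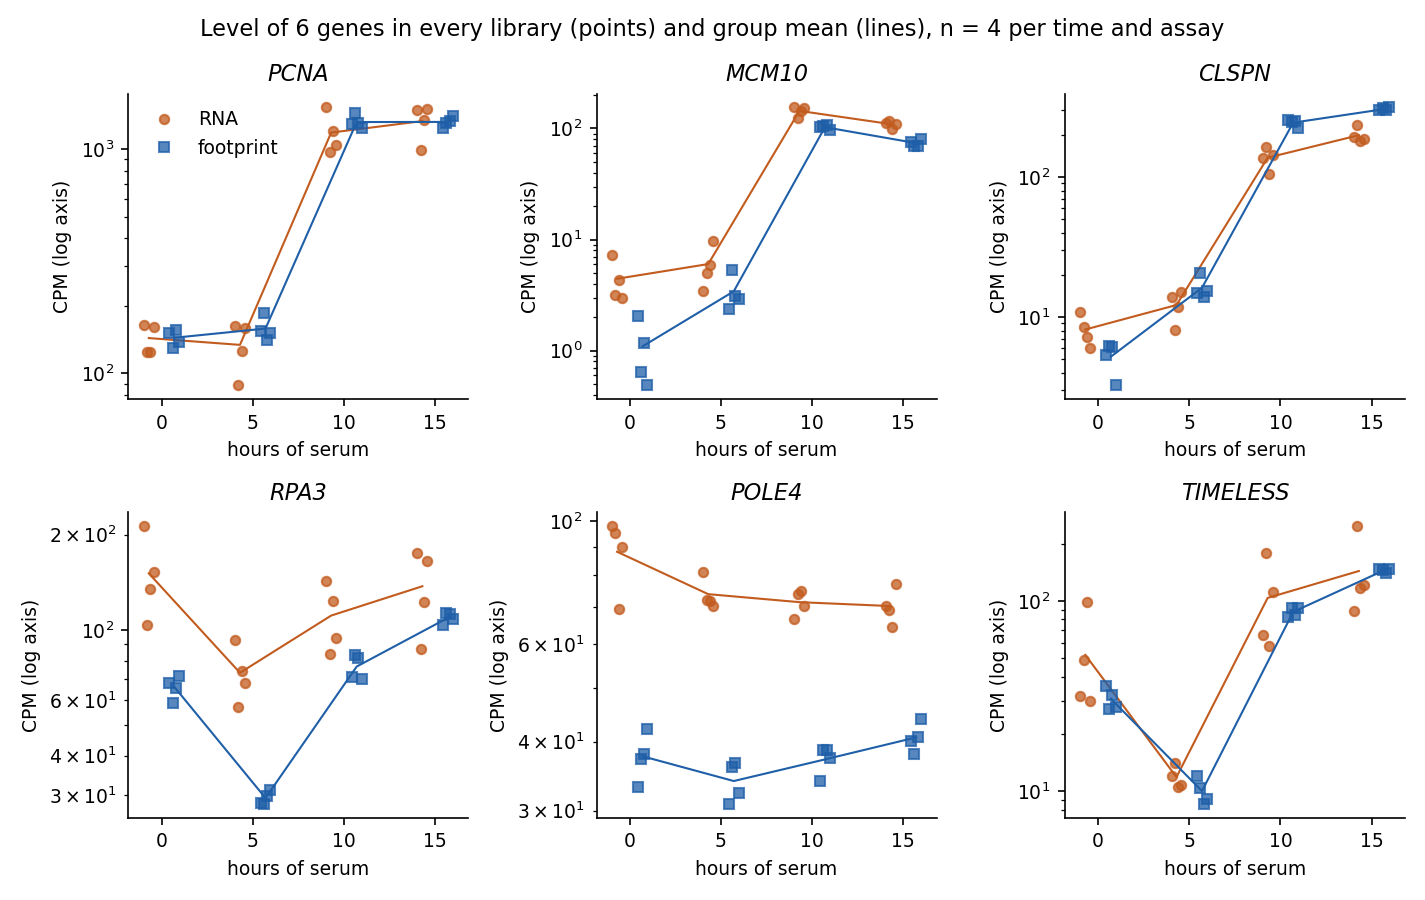
CPM on a log axis in every RNA (circles) and footprint (squares) library of 6 members against hours of serum, with lines through the group means (n = 4) and points moved sideways for clarity. PCNA, MCM10 and CLSPN step up between 5 h and 10 h, RPA3 and TIMELESS dip at 5 h in both assays, and POLE4 stays between 30.9 and 44.0 CPM of footprints throughout.

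All 4 members of polymerase alpha-primase were called higher at 10 h and at 15 h in both assays. PRIM1, the catalytic primase subunit, rose most: its footprints were 3.85, 1.70, 2.37 and 3.57 CPM at 0 h, 3.16, 4.80, 3.52 and 3.04 after 5 h, 49.7, 48.2, 56.0 and 41.4 after 10 h and 41.2, 48.1, 45.6 and 44.5 after 15 h. The 0 h and 5 h groups overlapped, and all 10 h and 15 h libraries lay far above them. PRIM1 changed by 4.11 ± 0.15 in footprints and 2.28 ± 0.27 in RNA, from 8.48, 9.53, 18.8 and 14.9 CPM of RNA at 0 h to 75.8, 54.8, 60.9 and 54.9 after 10 h, without overlap.

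POLA1, the DNA polymerase subunit, had the smallest 10 h change of the complex. Its footprints were 49.7, 41.6, 44.4 and 41.1 CPM at 0 h, 22.7, 18.4, 18.9 and 20.5 after 5 h, 151, 152, 145 and 147 after 10 h and 264, 266, 255 and 278 after 15 h. The groups did not overlap at any step, with a change of -1.12 ± 0.08 at 5 h and rises of 1.76 ± 0.06 at 10 h and 2.60 ± 0.06 at 15 h against 0 h. RNA followed with 72.7, 78.4, 73.6 and 73.2 CPM at 0 h, 50.03, 34.1, 57.7 and 53.0 after 5 h, 209, 143, 144 and 182 after 10 h and 319, 299.9, 257 and 294 after 15 h. The RNA fall at 5 h (-0.62 ± 0.18) was not called without the 5 RNA libraries that stood apart (adjusted p = 0.143). POLA2, which tethers the complex, and PRIM2, the regulatory primase subunit, rose by 3.10 ± 0.07 and 2.38 ± 0.11 in footprints at 10 h.

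Polymerase delta had 3 measured members, all called higher at 10 h and 15 h in both assays. POLD3, an accessory subunit, rose most, on few counts: footprints were 3.55, 2.34, 3.05 and 3.25 CPM at 0 h, 2.90, 2.82, 2.82 and 4.06 after 5 h, 19.5, 22.4, 16.8 and 14.9 after 10 h and 24.6, 20.04, 18.4 and 19.3 after 15 h. The 0 h and 5 h groups overlapped and the 10 h and 15 h groups lay above them, a change of 2.61 ± 0.18 at 10 h. Its RNA ran 4.85, 3.18, 1.44 and 1.49 CPM at 0 h and 22.5, 14.4, 23.4 and 9.91 after 10 h, a change of 2.51 ± 0.42. POLD2, the scaffold subunit, rose least, with footprints of 70.4, 77.3, 66.6 and 78.6 CPM at 0 h, 85.0, 74.2, 76.1 and 81.9 after 5 h, 115, 120.2, 121 and 117 after 10 h and 128, 133, 131 and 122 after 15 h. No 10 h or 15 h library overlapped the earlier ones, and the change was 0.69 ± 0.06 at 10 h. POLD2 RNA groups overlapped (281, 363, 351 and 318 CPM at 0 h, 354, 527, 449.6 and 394 after 10 h), and the change of 0.39 ± 0.14 (adjusted p = 0.0297) was not called in 3 of 14 alternative settings, where adjusted p reached 0.0729 without RNA 0 h replicate 1. At 15 h its RNA change of 0.35 ± 0.14 was likewise not called in 3 of 14 settings, with an adjusted p of up to 0.110 without RNA 15 h replicate 3. POLD1, the catalytic subunit, fell by 1.03 in footprints at 5 h and stood 2.02 ± 0.09 above 0 h at 10 h.

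In polymerase epsilon 3 of 4 members rose. POLE2, the subunit that binds the catalytic chain and the helicase, had footprints of 1.48, 0.8498, 1.52 and 1.79 CPM at 0 h, 1.45, 1.16, 2.68 and 1.14 after 5 h, 30.9, 34.6, 35.3 and 29.99 after 10 h and 39.6, 37.6, 38.3 and 40.6 after 15 h. The early groups overlapped and the late groups lay far above them, a change of 4.497 ± 0.17 from 29 footprint counts over the 4 libraries at 0 h. POLE2 RNA went from 12.1, 9.53, 7.22 and 13.5 CPM at 0 h to 55.3, 36.5, 53.1 and 48.6 after 10 h, a change of 2.17 ± 0.31.

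POLE4 (chr2:74958643-74970128 on GRCh38.p14), a small histone-fold subunit that pairs with POLE3, was the exception. Footprints were 33.1, 37.2, 37.9 and 42.2 CPM at 0 h, 30.9, 35.9, 36.6 and 32.3 after 5 h, 34.0, 38.6, 38.6 and 37.3 after 10 h and 40.03, 38.0, 40.7 and 44.0 after 15 h. Each later group overlapped the 0 h group, and the 5 h libraries lay below the 15 h libraries. Changes were -0.03 ± 0.08 at 10 h (adjusted p = 0.696) and 0.10 ± 0.08 at 15 h (adjusted p = 0.264). In RNA POLE4 had 98.1, 95.3, 69.3 and 89.7 CPM at 0 h and 66.6, 74.0, 74.9 and 70.3 after 10 h, a change of -0.31 ± 0.15 that was not called (adjusted p = 0.0908). Its partner POLE3 rose by 1.84 ± 0.09 in footprints and 2.06 ± 0.17 in RNA, and POLE, the catalytic chain, by 2.26 ± 0.07 and 1.40 ± 0.29.

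Genes of helicase activation held the widest changes, with 7 of 7 measured members called higher at 10 h and 15 h in both assays. MCM10 (chr10:13161558-13211110 on GRCh38.p14), which the activated helicase needs to start moving, had footprints of 2.07, 0.637, 1.19 and 0.487 CPM at 0 h, 2.37, 5.30, 3.10 and 2.92 after 5 h, 102, 104, 108 and 96.1 after 10 h and 75.5, 69.9, 69.3 and 80.5 after 15 h. Each group stood apart from the next: all 5 h libraries exceeded all 0 h libraries, and the 15 h libraries were below the 10 h libraries. MCM10 rose by 6.67 ± 0.16 at 10 h, the largest change of the members, from 20 footprint counts over the 4 libraries at 0 h. Its RNA was 7.27, 3.18, 4.33 and 2.99 CPM at 0 h, 3.45, 5.01, 5.89 and 9.74 after 5 h, 155, 125, 144 and 152 after 10 h and 112, 117, 99.4 and 109 after 15 h, with overlap between 0 h and 5 h only, and a change of 4.96 ± 0.25 at 10 h.

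GINS4, a subunit of the GINS part of the helicase, took the opposite early course. Footprints were 11.5, 10.2, 12.5 and 10.1 CPM at 0 h, 3.16, 3.31, 2.25 and 3.17 after 5 h, 37.3, 41.2, 39.3 and 37.4 after 10 h and 74.5, 67.6, 73.5 and 77.8 after 15 h. No groups overlapped, with a change of -1.89 ± 0.16 at 5 h, the largest fall of the members, and a further rise of 0.91 ± 0.07 from 10 h to 15 h. In RNA GINS4 had 19.4, 9.53, 4.33 and 5.98 CPM at 0 h, 3.45, 4.01, 1.18 and 3.25 after 5 h and 20.5, 21.1, 23.4 and 20.7 after 10 h. Its RNA change at 10 h (1.06 ± 0.32) was not called without the 5 RNA libraries that stood apart (adjusted p = 0.134). CDC45 rose by 5.43 ± 0.16 in footprints at 10 h and 6.19 ± 0.15 at 15 h, GINS1 by 3.32 ± 0.10 and 3.55 ± 0.10, and GINS2 by 4.11 ± 0.12 and 4.001 ± 0.13. CDC7 was already up at 5 h (0.999 ± 0.19 in footprints), and its activator DBF4 went from 2.30 ± 0.15 at 10 h to 2.95 ± 0.14 at 15 h.

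For Okazaki fragment processing, 4 of 4 members were called higher in footprints at 10 h and 3 of 4 in RNA. DNA2 (chr10:68414064-68472521 on GRCh38.p14), a nuclease and helicase that trims long flaps, had 7.10, 4.89, 4.74 and 4.87 CPM of footprints at 0 h, 6.72, 6.79, 7.04 and 4.94 after 5 h, 89.8, 95.8, 88.0 and 84.5 after 10 h and 101, 108, 108 and 109 after 15 h. The 0 h and 5 h groups overlapped and the late groups were far above. In RNA it had 83.6, 62.5, 59.2 and 98.7 CPM at 0 h, 53.5, 33.1, 43.6 and 61.7 after 5 h, 186, 97.1, 162 and 151 after 10 h and 197, 150.4, 174 and 173 after 15 h. DNA2 RNA was well above its footprints in every 0 h library and nearer to them after 15 h, with changes at 10 h of 0.97 ± 0.21 in RNA and 4.10 ± 0.10 in footprints.

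LIG1, which seals the fragments, changed least of this role. Its footprints were 25.7, 22.1, 22.2 and 25.99 CPM at 0 h, 11.3, 9.77, 9.58 and 12.04 after 5 h, 66.3, 69.1, 66.2 and 62.8 after 10 h and 127, 116, 128 and 121 after 15 h. No groups overlapped, with a change of -1.15 ± 0.10 at 5 h and rises of 1.47 ± 0.08 at 10 h and 2.36 ± 0.07 at 15 h. LIG1 RNA ran 36.3, 47.7, 52.0 and 17.9 CPM at 0 h, 17.3, 15.04, 10.6 and 12.98 after 5 h, 45.1, 80.7, 49.95 and 52.2 after 10 h and 91.4, 113, 114 and 85.4 after 15 h, and the 0 h and 10 h groups overlapped (change 0.56 ± 0.25, adjusted p = 0.0730). That change was called higher in 5 of 14 settings, which were no filter on low counts, the replicate block, without RNA 0 h replicate 3, without RNA 10 h replicate 1, and without the 5 RNA libraries that stood apart. FEN1, the flap endonuclease, rose early, by 1.21 ± 0.13 at 5 h and 4.05 ± 0.11 at 10 h in footprints, and RNASEH2A, the catalytic chain of the enzyme that removes ribonucleotides, fell by 0.96 and then stood 1.92 ± 0.07 above 0 h.

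RPA, the single-strand binding trimer, changed less, with 3 of 3 subunits called higher in footprints at 10 h and 1 of 3 (RPA2) in RNA. RPA2 had footprints of 15.1, 17.4, 21.002 and 17.5 CPM at 0 h, 16.2, 18.7, 16.6 and 17.2 after 5 h, 97.2, 100.2, 93.9 and 89.8 after 10 h and 97.1, 98.7, 104 and 108 after 15 h. Its early groups overlapped, its late groups were higher, and the change at 10 h was 2.40 ± 0.08 in footprints and 2.09 ± 0.18 in RNA, where levels went from 43.6, 39.2, 31.8 and 23.9 CPM at 0 h to 163, 131, 155 and 152 after 10 h.

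RPA3 (chr7:7636518-7718607 on GRCh38.p14), the smallest subunit, had footprints of 68.0, 58.9, 65.5 and 71.6 CPM at 0 h, 28.3, 28.2, 29.9 and 31.2 after 5 h, 71.1, 83.5, 81.6 and 70.1 after 10 h and 103, 113, 112 and 108 after 15 h. The 5 h libraries lay below all others, the 0 h and 10 h groups overlapped, and the 15 h group was highest. Its footprint changes against 0 h were -1.17 ± 0.08, 0.22 ± 0.07 and 0.73 ± 0.07. RPA3 RNA had 213, 104, 134 and 152 CPM at 0 h, 93.2, 57.2, 74.2 and 68.2 after 5 h and 142, 83.6, 123 and 94.6 after 10 h, with a called fall at 5 h (-1.06 ± 0.25) and an uncalled change at 10 h (-0.45 ± 0.24). The latter was called lower with the replicate block and without the 5 RNA libraries that stood apart. RPA1, the large subunit, rose by 0.92 ± 0.06 in footprints at 10 h, and its RNA change of 0.46 ± 0.41 was not called, except without those 5 libraries. RPA1 RNA at 10 h was 52.2, 122, 65.6 and 74.8 CPM in replicates 1 to 4, highest in replicate 2.

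Fork protection genes split early and rose together later, with 4 of 4 called higher at 10 h in both assays. CLSPN (claspin), the mediator that lets the checkpoint kinase ATR activate CHK1, had footprints of 5.33, 6.16, 6.10 and 3.25 CPM at 0 h, 14.9, 20.5, 13.9 and 15.3 after 5 h, 255, 247, 251 and 223 after 10 h and 300.0, 308, 299 and 314 after 15 h. No groups overlapped, and the changes against 0 h were 1.64 ± 0.15, 5.57 ± 0.11 and 5.89 ± 0.10. CLSPN RNA went from 10.9, 8.47, 7.22 and 5.98 CPM at 0 h and 13.8, 8.02, 11.8 and 15.1 after 5 h, which overlapped, to 137, 164, 105 and 142 after 10 h.

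TIMELESS and TIPIN bind each other at the fork, yet TIMELESS fell at 5 h where TIPIN rose. TIMELESS footprints were 35.8, 27.2, 32.01 and 27.6 CPM at 0 h, 11.999, 10.4, 8.59 and 9.13 after 5 h, 82.3, 91.8, 84.8 and 91.5 after 10 h and 147, 145, 139.7 and 148 after 15 h. No groups overlapped, and the changes against 0 h were -1.59 ± 0.11, 1.53 ± 0.08 and 2.26 ± 0.07. In RNA TIMELESS ran 31.5, 48.7, 98.2 and 29.9 CPM at 0 h, 12.1, 14.04, 10.6 and 10.8 after 5 h and 66.6, 179, 57.8 and 112 after 10 h. The 0 h and 10 h RNA groups overlapped, and the change of 1.03 ± 0.41 (adjusted p = 0.0487) was not called in 6 of 14 settings, with an adjusted p of 0.167 without RNA 10 h replicate 2. TIPIN footprints rose by 1.34 ± 0.15 at 5 h and 3.13 ± 0.12 at 10 h, then fell by 0.42 from 10 h to 15 h. WDHD1 rose by 0.63 ± 0.11 at 5 h and 3.67 ± 0.09 at 10 h.

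Both CAF-1 subunits rose to 10 h and then fell in footprints. CHAF1A had 12.7, 8.71, 12.2 and 8.61 CPM at 0 h, 14.2, 15.4, 8.74 and 10.52 after 5 h, 133, 124, 127 and 124 after 10 h and 98.0, 96.4, 94.6 and 109 after 15 h. CHAF1B had 10.9, 12.3, 14.7 and 8.77 CPM at 0 h, 13.98, 17.7, 10.99 and 12.8 after 5 h, 103, 114, 115 and 118 after 10 h and 94.3, 92.8, 95.2 and 107 after 15 h. The 0 h and 5 h groups of each overlapped, and the 15 h group of CHAF1A was below its 10 h group without overlap, while that of CHAF1B overlapped it. Changes at 10 h against 0 h were 3.61 ± 0.11 and 3.26 ± 0.11, and from 10 h to 15 h -0.35 ± 0.07 and -0.21 ± 0.07. The late fall of CHAF1B (adjusted p = 0.0187) was not called without footprint 15 h replicate 2 (adjusted p = 0.0613) or replicate 3. In RNA CHAF1A went from 16.96, 15.9, 37.5 and 19.4 CPM at 0 h to 102, 183, 149.9 and 134 after 10 h and CHAF1B from 12.1, 9.53, 17.3 and 7.47 to 70.7, 113, 87.4 and 88.3, both without overlap.

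At 5 h the members had split in footprints, and in RNA more of them had fallen than risen. Footprints of 15 members fell against 0 h (40.5% of all genes were called lower) and those of 11 rose (35.2% called higher), shares of the 40 members near or below those of all genes, with a median change of 0.09. Those that fell were the loaders RFC1, RFC3, RFC5 and CHTF18, the polymerase chains POLA1, POLA2, PRIM2, POLD1 and POLE, the helicase subunit GINS4, the fragment enzymes LIG1 and RNASEH2A, RPA1, RPA3 and TIMELESS. Those that rose were ATAD5, DSCC1, RFC4, POLE3, MCM10, CDC7, DBF4, FEN1, TIPIN, CLSPN and WDHD1. In RNA 13 members were called lower (16.7% of all genes) and 3 higher (19.2% of all genes), the 3 being CDC7, FEN1 and TIPIN. The median RNA change of the members was -0.33, against -0.03 over all genes. Of the RNA falls, those of GINS2 and DNA2 were each lost in 3 of 14 settings and that of PRIM2 in 2. Adjusted p reached 0.218 for GINS2 and 0.0822 for PRIM2, both without the 5 RNA libraries that stood apart. For DNA2 it reached 0.0833 without RNA 5 h replicate 3. The falls of POLA1 (up to 0.143) and GINS4 (up to 0.0681, without RNA 0 h replicate 1) were lost in 1 setting each. Calls of CDC7 and TIPIN in RNA were each lost in 7 alternative settings, with an adjusted p of up to 0.128 for CDC7 (without RNA 0 h replicate 2) and 0.208 for TIPIN (without the 5 RNA libraries that stood apart), and FEN1 reached 0.116 without RNA 0 h replicate 4. The footprint fall of RFC3 was not called in 5 of 13 settings, with an adjusted p of up to 0.132 without footprint 0 h replicate 3, and the rise of DBF4 in 3, with up to 0.172 without footprint 0 h replicate 4. POLE3 was not called without footprint 5 h replicate 4 (adjusted p = 0.0672).

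Most members that fell early rose late. From 10 h to 15 h 22 members were called higher in footprints and 4 lower (20.8% of all genes higher, 20.2% lower). Of the 15 that had fallen at 5 h, 14 rose from 10 h to 15 h, and RFC3 was not called. Of the 11 that had risen at 5 h, CLSPN, DBF4 and FEN1 rose further, MCM10 and TIPIN fell, and 6 were not called. Over all genes, 27.1% of the 4439 lower at 5 h and 15.4% of the 3858 higher at 5 h were called higher from 10 h to 15 h, and 30.7% of the latter were called lower. The comparisons of 5 h with 0 h and of 15 h with 10 h share no library. Across the 40 members the changes in them had a Pearson correlation of -0.72 and a Spearman correlation of -0.68, against -0.31 and -0.23 over the 10959 genes tested. In RNA the values were -0.44 and -0.41 for members and -0.24 and -0.12 for all genes. Genes are not independent replicates, the points share their libraries, and the relation is given as a description. The calls of FEN1, RFC1 and POLE2 from 10 h to 15 h were lost in 7, 4 and 3 of 13 settings, with adjusted p up to 0.128 (FEN1, without footprint 10 h replicate 1), 0.0740 (RFC1, without footprint 15 h replicate 4) and 0.0644 (POLE2, without footprint 10 h replicate 4).

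**Figure D3:**
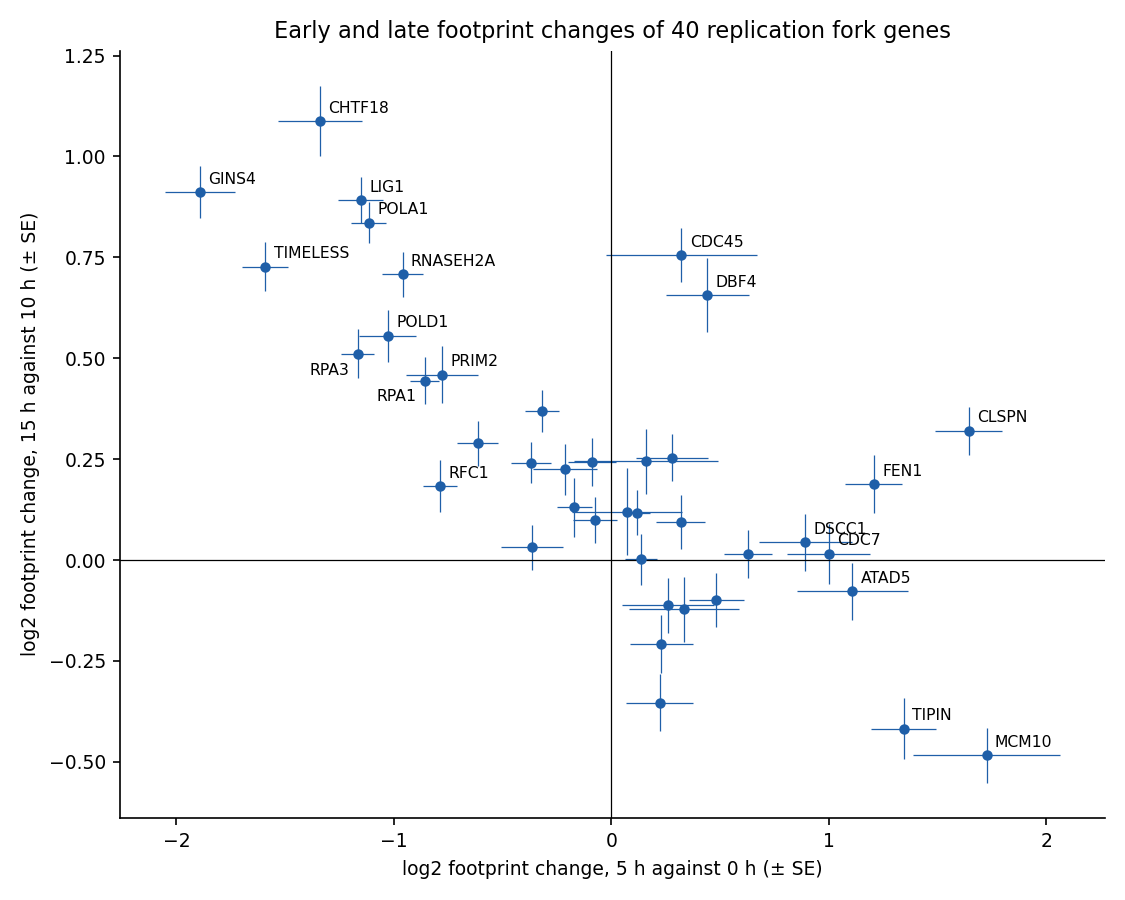
Log2 change in footprints from 0 h to 5 h (horizontal) against that from 10 h to 15 h (vertical) for the 40 members, with SE bars. Members that fell early, such as CHTF18, GINS4, LIG1 and TIMELESS, lie in the upper left, and MCM10 and TIPIN in the lower right, for a Pearson correlation of -0.72.

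Genes that mark dividing cells (MKI67, TOP2A, CCNB1, CDC20, AURKA, BIRC5 and CCNA2) changed too, but differed from the fork genes at 10 h. Of 8 listed, these 7 had a row, and all 7 were called lower at 5 h against 0 h in both assays, with medians of -2.32 in RNA and -2.52 in footprints. At 10 h against 0 h 2 were called higher and 2 lower in RNA (median 0.39), and 5 higher and 2 lower in footprints (median 1.74). Of the 40 fork genes 35 were called higher in RNA then and 39 in footprints, and 0 lower. From 10 h to 15 h all 7 markers were called higher in both assays, with medians of 1.64 and 1.77. The summed footprints of the 7 markers ran from 489 to 671 CPM at 0 h, 94.1 to 129.6 after 5 h, 1296 to 1644 after 10 h and 5680.0 to 6557 after 15 h. None was at 0 at 0 h, and their part in the early falls and late rises of fork genes was not tested.

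Footprints rose more than RNA for most members. At 10 h against 0 h the footprint change exceeded the RNA change in 39 of 40 members, with a median difference of 0.62, and at 15 h in 36 of 40, with 0.67. Translational efficiency (TE), footprints relative to RNA, came from a joint edgeR fit of both assays, as the difference between their changes over time. At 10 h against 0 h 9 members were called higher (5.44% of all genes) and 0 lower (1.8% of all genes, with 0 members lower at an unadjusted p under 0.05 and 0 by DESeq2). At 15 h 11 were called higher (7.03%) and 0 lower (3.94%), and between 5 h and 10 h 2 were higher (0.595%) and 0 lower (0.0572%). At 5 h 0 were called in either direction by edgeR (4.13% of all genes higher, 2.34% lower), with 7 at an unadjusted p under 0.05 and 3 higher by DESeq2 (GINS2, DNA2 and WDHD1). The median TE change of the members was 0.51 at 10 h and 0.53 at 15 h, against -0.04 and -0.04 over all genes.

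DNA2 led this group. Its TE change was 3.01 ± 0.25 at 10 h (adjusted p = 6.25e-12) and 3.003 ± 0.25 at 15 h, on 235 RNA and 105 footprint counts over the 4 libraries of each assay at 0 h. Between 5 h and 10 h it was 2.11 ± 0.25. In log2 footprint per RNA, DNA2 went from the 0.916 percentile of all genes at 0 h to the 2.15 percentile after 5 h, the 30.8 percentile after 10 h and the 31.1 percentile after 15 h. It was therefore among the genes with the fewest footprints per RNA at 0 h, and below the median of all genes at each time.

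The other members called in TE at 10 h were ATAD5 (2.37 ± 0.49), POLE2 (2.20 ± 0.48), PRIM1 (1.70 ± 0.37), CLSPN (1.40 ± 0.37), WDHD1 (1.28 ± 0.29), POLD1 (0.95 ± 0.25), RNASEH2A (0.81 ± 0.18) and LIG1 (0.80 ± 0.24). All were called at 15 h too, with CHTF18 (1.04 ± 0.32) and RPA3 (0.73 ± 0.23) in addition. POLA1 was called between 5 h and 10 h (1.002 ± 0.18). PCNA, whose footprints and RNA rose alike, had a TE change of 0.05 ± 0.21 at 10 h (adjusted p = 0.940).

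Several TE calls rest on few RNA counts at 0 h (22 over 4 libraries for ATAD5, 26 for CLSPN, 33 for POLE2 and 39 for PRIM1). Without the 5 RNA libraries that stood apart, DNA2, ATAD5, POLE2, POLD1, RNASEH2A, WDHD1 and RPA3 were called at 10 h and 15 h and CLSPN at 10 h. PRIM1 was not called at 10 h (adjusted p = 0.05501) or 15 h (0.109), nor LIG1 at 10 h (0.278) or 15 h (0.357), nor CHTF18 (0.144) and CLSPN (0.0792) at 15 h. Leaving out RNA 0 h replicate 1 ended the calls of CLSPN at 10 h (adjusted p = 0.0957) and 15 h (0.147) and of ATAD5 (0.0671), WDHD1 (0.0557) and RPA3 (0.202) at 15 h. LIG1 at 10 h and RPA3 at 15 h were each not called in 10 of 22 settings.

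**Figure D4:**
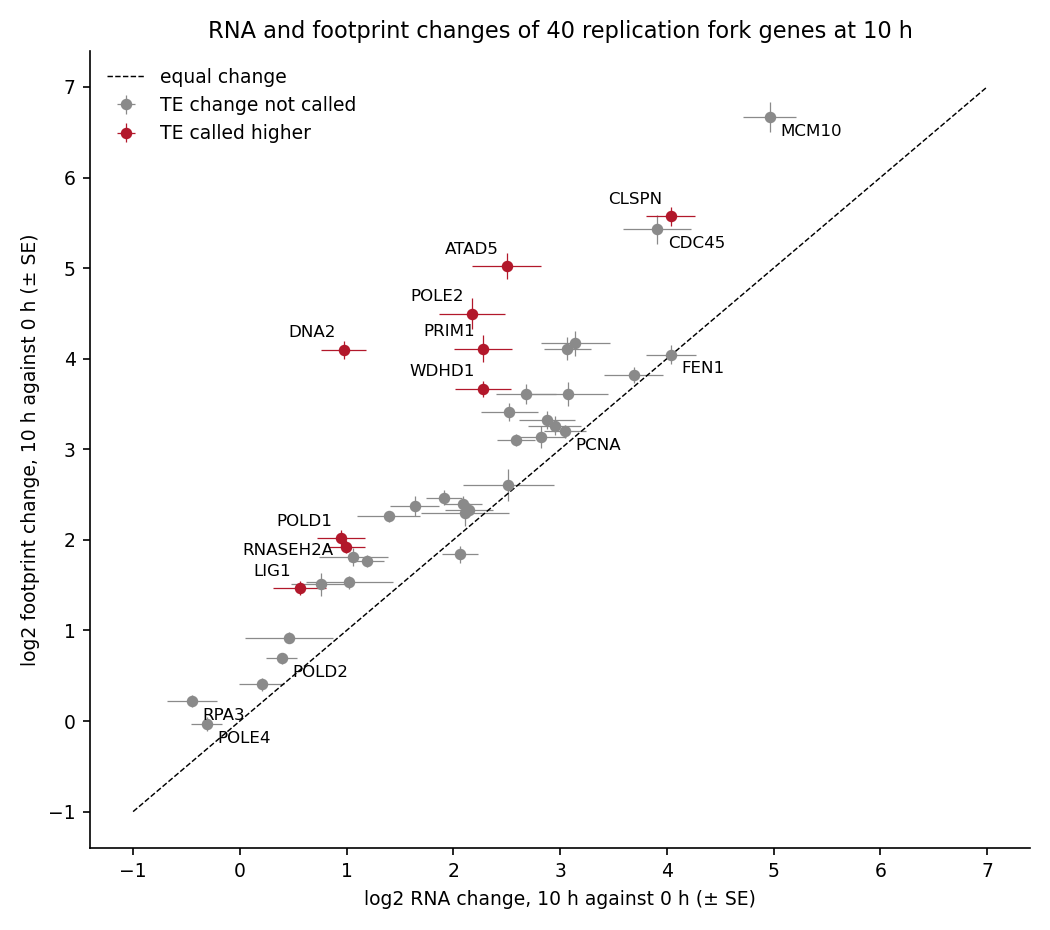
Log2 change in footprints against log2 change in RNA at 10 h against 0 h for the 40 members, with SE bars and a dashed line of equal change. The 9 members called higher in translational efficiency (red) lie above the line, DNA2 farthest at 0.97 in RNA and 4.10 in footprints, and PCNA, FEN1 and POLE4 lie near it.

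Measured per RNA, the fork genes moved toward the middle of all genes. The median log2 footprint per RNA of the members was -1.04 at 0 h, -0.62 after 5 h, -0.22 after 10 h and -0.18 after 15 h. Over the 8736 genes tested in both assays it was -0.33, -0.37, -0.24 and -0.23. In the same order 12, 14, 20 and 21 of 40 members were above the median of all genes. RPA1 had the most footprints per RNA of the members at 0 h, at the 93.6 percentile of all genes, and was at the 96.4 percentile at 15 h.

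Levels of different genes were compared per kb of the counted length in the table, which is short for some members (276 bases for POLD3, 294 for POLE4 and 498 for PRIM1). PCNA had the highest footprint level per kb of the members at 5 h, 10 h and 15 h, with 1819 ± 119 CPM per kb at 10 h, and RPA3 came next then at 250.2 ± 22.8. At 0 h RPA3 (216 ± 17.6) and PCNA (198 ± 16.7) were within their SD of each other. MCM10, CDC45 and ATAD5 were lowest at 0 h, at 0.427 ± 0.28, 0.781 ± 0.38 and 0.384 ± 0.15. Of the 39 pairs of neighbours in the order, 33 at 0 h and 25 at 10 h differed by less than their SDs.

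Subunits of some complexes came closer to each other in footprints per kb. For RFC2, RFC3, RFC4 and RFC5 the highest over the lowest subunit was 3.08 ± 0.39 at 0 h, 2.90 ± 0.43 after 5 h, 1.19 ± 0.088 after 10 h and 1.49 ± 0.043 after 15 h (mean of the ratios in 4 libraries ± SD). In RNA the ratio was 12.98 ± 13.56 at 0 h (5.09 to 33.3 over the libraries), 9.07 ± 1.07 at 5 h and 2.12 ± 0.29 at 10 h. Few counts widen such a ratio, and their part in the early values was not tested. RFC1 stayed behind, so with it the footprint ratio was 3.08 ± 0.39 at 0 h and 4.84 ± 0.16 at 10 h. POLE and POLE2 differed by 5.85 ± 2.48 times at 0 h and by 1.10 ± 0.062 times at 10 h. In RNA POLE and POLE2 did not come closer, with ratios of 1.90 ± 0.65 at 0 h, 2.39 ± 0.92 at 10 h and 3.20 ± 1.91 at 15 h. With POLE3 and POLE4 the ratio in polymerase epsilon went from 141 ± 49.7 to 5.60 ± 0.35.

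Other complexes gave a mixed picture. In footprints the 3 measured polymerase delta subunits had ratios of 9.25 ± 1.31 at 0 h, 20.95 ± 3.85 after 5 h, 3.73 ± 0.23 after 10 h and 2.74 ± 0.25 after 15 h. The 3 RPA subunits had 9.28 ± 1.57, 4.22 ± 0.35, 1.98 ± 0.15 and 2.64 ± 0.14 in the same order. Polymerase alpha-primase stood at 2.74 ± 0.64, 2.85 ± 0.40, 3.50 ± 0.14 and 3.02 ± 0.26. GINS1, GINS2 and GINS4 were at 2.55 ± 0.47, 3.35 ± 0.37, 2.98 ± 0.11 and 1.89 ± 0.16, wider at 5 h than at 0 h and closest at 15 h. CHAF1A and CHAF1B differed by 1.95 ± 0.42 times at 0 h and 1.54 ± 0.14 times at 10 h. These ratios are descriptions with no test, and the counted length enters each of them.

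**Figure D5:**
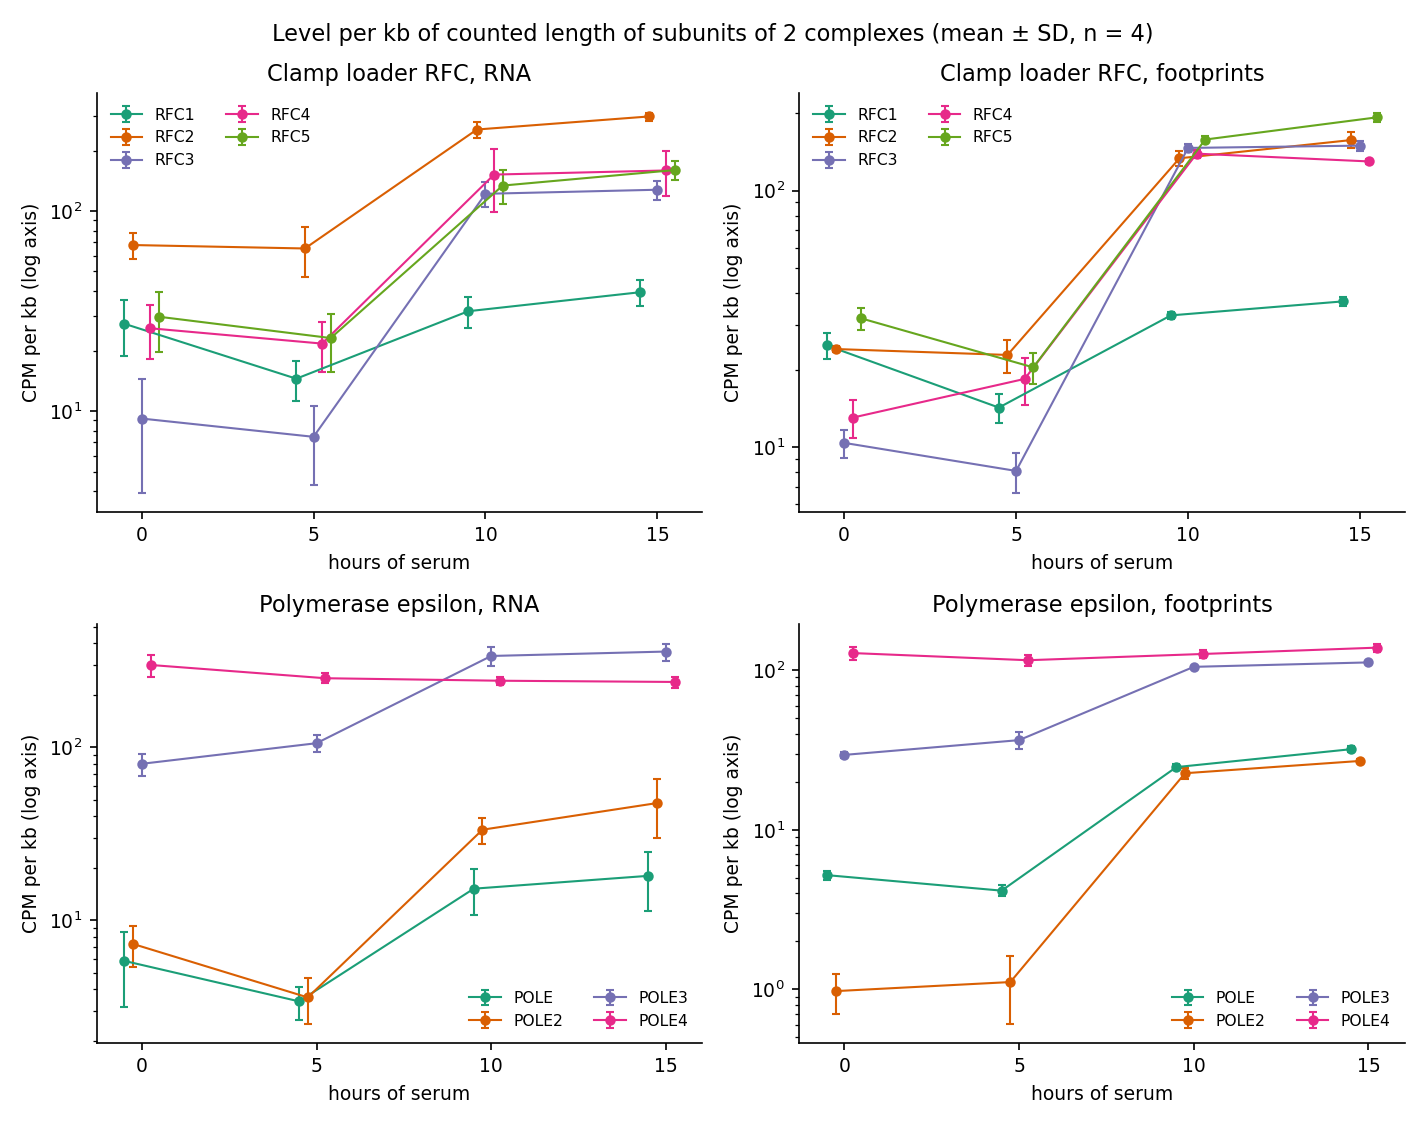
CPM per kb of counted length, on a log axis, of the RFC1 to RFC5 subunits (top) and the polymerase epsilon subunits (bottom) in RNA (left) and footprints (right) against hours of serum, as mean ± SD of 4 libraries. Footprints of RFC2 to RFC5 meet at 10 h with RFC1 below them, and those of POLE and POLE2 meet below POLE3 and POLE4.

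Of 22 other fork partners listed for comparison, 19 had a row. In footprints at 10 h against 0 h 15 of 19 were called higher and 3 lower (CHTF8, TOP1 and ASF1A), with a median of 1.86, beside 39 of 40 members and a median of 2.85. DTL, which marks clamp-bound proteins for destruction, changed by 6.32 ± 0.17 and UHRF1, which guides maintenance methylation, by 4.34 ± 0.10, while RNASEH2C (-0.10 ± 0.09) was not called. In RNA 12 of 18 tested were higher and 1 lower, with a median of 1.80. Over all genes 39.4% were higher and 39% lower in footprints, and 23.3% and 21.5% in RNA. Like MCM10, DTL rose in footprints at 5 h (2.44 ± 0.24) and fell by 0.73 from 10 h to 15 h.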

How the data were processed

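RNA-seq and Ribo-seq were measured in 16 libraries each, 4 biological replicates at each of 4 times. The deposited values are raw counts per gene made by the authors with STAR 2.5.4a and featureCounts 1.5.1 on GRCh38, per the submitters' processing notes. The annotation, the use of strand, trimming and the treatment of reads that fit several places are not given in the sources used here, so overlapping and antisense genes cannot be told apart. Of the lengths in the table, 96.46% are multiples of 3, so they are read as coding lengths. All 32 library columns matched a sample, and 0 pairs of libraries were identical. Symbols came from matching Ensembl identifiers to a table of gene names, which gave 18905 of 19023 genes a symbol.

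Counts were fitted with edgeR 4.0.16 (R 4.3.3; TMM scaling, filterByExpr by group, robust quasi-likelihood), 1 fit per assay over all 4 times. Translational efficiency was the assay-by-time term of a joint fit over 32 libraries. Benjamini-Hochberg adjustment ran over the 8775 genes tested in RNA, 10959 in footprints and 8736 in both, and 40 of 40 members were tested in each. At 0 h, 23 of 40 members had at least 10 counts in every RNA library and 35 of 40 in every footprint library, so low members are the least precise. Alternatives were RLE scaling, DESeq2 1.42.0, no filter on low counts, a replicate block, only the compared groups, limma 3.58.1 with voom for translational efficiency, and leaving out each library. On simulated counts for 5 h against 0 h, edgeR recovered 64.4% of 90 genes changed 2-fold in RNA, with 8656 tested. It recovered 91.5% of 94 in footprints (10728 tested) and 72.7% of 165 for translational efficiency (8622 tested). Changes were set only in genes with a mean over 10 counts per library. The simulation used 1 dispersion per assay and no spread shared between libraries. These shares may therefore be too high for members with few counts.

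Same-numbered libraries were checked for pairing, with the mark that all 4 pairs had deviations correlated over 0.1. This held in RNA at 15 h against 0 h (0.12 to 0.35). The main fits did not use the replicate number, so the counts in the results are unpaired there too. In RNA from 10 h to 15 h 3 of 4 pairs passed (0.05 to 0.57), and the labels do not say what a number marks. With the replicate block 38 members were called higher in RNA at 15 h against 0 h, beside 37 in the main fit.

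Per-library values are given for PCNA and for the members with the largest and smallest absolute footprint change at 10 h in each role, and members called in translational efficiency are all named. The members and lists were chosen with earlier results of these data known. Figures were drawn with matplotlib 3.10.9.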

Additional observations from a re-analysis of the deposited data

Results flagged for a closer look

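Of 152 groups of 4 library values examined, 10 held a library whose gap to its nearest neighbour was over the critical share of the group's range in Dixon's test, where chance gives about 1 in 20. In RNA, POLA1 at 0 h was highest in replicate 2 at 78.4 CPM and POLD2 at 5 h highest in replicate 2 at 349 CPM. POLD3 RNA at 5 h was highest in replicate 1 at 5.18 CPM, and CHAF1A RNA at 0 h was highest in replicate 3 at 37.5 CPM. In footprints, POLD3 at 5 h was highest in replicate 4 at 4.06 CPM, and GINS4 at 5 h was lowest in replicate 3 at 2.25 CPM. DNA2 footprints stood apart at 3 times, highest at 0 h in replicate 1 (7.10 CPM), lowest at 5 h in replicate 4 (4.94 CPM) and lowest at 15 h in replicate 1 (100.5 CPM). CHAF1B footprints at 15 h were highest in replicate 4 at 107 CPM. Footprint 0 h replicate 1 and 15 h replicate 1 were also the lowest on the leading axis of within-group spread of footprints, at -18.8 and -18.7, an axis holding 16.3% of that spread.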

How the results depend on the processing

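In footprints 39 members were called higher at 10 h and at 15 h against 0 h under every setting run, and no member's change reversed as a called value. Member changes kept their side of the threshold in 2554 of 2599 comparisons for footprints, 2686 of 2786 for RNA and 3407 of 3520 for translational efficiency (TE). Levels per kb and per RNA moved by less than 1 SD in every setting run. For levels per kb, leaving out 1 library cannot move the mean of its group by 1 SD, whatever the values. That mark therefore cannot show how far the levels depend on a library, and no conclusion is drawn from it.

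Counts of members moved as follows, and the cause was not tested. In RNA at 5 h against 0 h, 3 were higher, 1 by DESeq2, 1 with only the groups compared, and 1 to 2 with each library left out in turn. With the replicate block, the counts were 1 lower in RNA at 10 h against 0 h (beside 0), 8 higher and 2 lower from 10 h to 15 h (beside 5 and 0), 3 higher and 1 lower in TE at 5 h (beside 0 and 0), 14 higher in TE at 10 h (beside 9), and 4 higher between 5 h and 10 h (beside 2). The block changed no other member count by over 1.5 times, and the labels do not say what a replicate number marks. All 4 same-numbered pairs correlated over 0.1 in RNA at 15 h against 0 h, 3 of 4 from 10 h to 15 h (0.44, 0.57, 0.24 and 0.05) and at 5 h against 0 h, and 2 of 4 in the other RNA comparisons. In footprints at most 1 of 4 did. Without the 5 RNA libraries that stood apart, chosen after seeing the data, the counts were 1 lower in RNA at 10 h, 8 higher and 1 lower from 10 h to 15 h, 3 higher and 1 lower in TE at 5 h, and 7 higher in TE at 15 h (beside 11). Leaving out each library in turn gave 0 to 1 lower in RNA from 10 h to 15 h, 0 to 2 higher and 0 to 1 lower in TE at 5 h, and 8 to 16 higher in TE at 15 h. DESeq2 called 3 higher in TE at 5 h and 16 at 15 h, and on simulated TE counts 23.6% of its calls were false, against 7.6% for edgeR.

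Over all genes, counts that moved by over 1.5 times with the block were 839 to 1275 lower in RNA between 5 h and 10 h, 334 to 629 higher and 185 to 541 lower from 10 h to 15 h (91 lower with only the groups compared), 361 to 585 higher and 204 to 463 lower in TE at 5 h, 157 to 348 lower in TE at 10 h, 344 to 668 lower in TE at 15 h, and 52 to 104 higher and 5 to 42 lower in TE between 5 h and 10 h. The TE count of lower genes at 10 h was 101 with no filter, 69 with voom and 344 without the 5 libraries, and at 15 h it was 226 with no filter and 217 with voom. Between 5 h and 10 h DESeq2 gave 94 higher and 21 lower, and leaving out the 5 libraries 35 lower.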

Other observations

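DNA polymerases outside the fork changed less than the fork genes. Of 18 listed repair and translesion polymerases, ligases and partners 15 had a row, and at 10 h against 0 h 11 were called higher and 3 lower in footprints, with a median change of 0.45, beside 39 of 40 fork genes and a median of 2.85. POLQ, which joins broken ends, stood at 3.30 and RAD18, which marks the clamp for translesion synthesis, at 3.02, while POLI (-1.48), POLM (-0.71) and POLL (-0.35) fell. In RNA 3 of 13 tested were higher and 3 lower, near the shares of all genes (23.3% higher, 21.5% lower). In footprints 39.4% of all genes were higher and 39% lower.

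All 9 listed genes of mitochondrial DNA replication had a row. At 10 h against 0 h 7 were called higher and 0 lower in footprints by edgeR, with a median of 0.50 (39.4% of all genes higher, 39% lower). TWNK, the mitochondrial helicase, stood at 1.85, RNASEH1 at 1.38 and POLG, the mitochondrial DNA polymerase, at 0.28, whereas TOP1MT (-0.21) was not called.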
